A study of Mus musculus with 18 samples.

Results

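Mutant bulge hair follicle stem cells were compared with control bulge stem cells from mouse ear skin by RNA-seq, in 6 of the 18 libraries of the series. The members were the 3 libraries of the GFP fraction of bulge stem cells (HF-SC GFP, mice 814, 815 and 817) and the 3 libraries of control bulge stem cells (HF-SC Co, mice 810, 825 and 828), chosen by their labels. The mutant mice (DKO*) carried floxed c-Jun and JunB alleles, a tamoxifen-inducible Cre (Cre-ERT) driven by the keratin 5 promoter, and the mT/mG reporter, which switches a cell from membrane Tomato to membrane GFP once Cre has acted. The control mice carried the same Cre and reporter and were wild type or heterozygous for both genes. All mice were 8 weeks old, of a mixed background and of both sexes, and had received 4 daily injections of 2 mg tamoxifen, and cells were collected at day 7. Bulge stem cells were sorted as CD45-, CD49f-high, CD34+ epidermal cells. The DKO* cells were split by the reporter into GFP cells, in which Cre had switched it, and Tomato cells (Tom), in which Cre had not. The control cells were not stated to have been split in this way. The other libraries used below were the HF-SC Tom cells of the same 3 DKO* mice and the basal keratinocytes (b-KC, CD49f-high) of the Co and GFP groups, with 3 mice in each.

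Bulge stem cells sit in the outer root sheath of the hair follicle, divide rarely while the follicle rests, and regrow the hair when activated by the balance of Wnt and BMP signals. CD34, keratin 15 and Lgr5 mark them, and the factors Lhx2, Sox9, Nfatc1 and Tcf7l1 are known to keep their identity. c-Jun and JunB are subunits of AP-1, a dimeric transcription factor that binds a short palindromic DNA element and controls epidermal proliferation, differentiation and cytokine genes.

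A level is given in FPKM (fragments per kilobase of transcript, scaled to the number of mapped fragments), and a change is the difference of group means of log2(FPKM + 1), GFP minus Co, with its standard error (SE) from limma. Of 23951 genes 12751 reached 1 FPKM in at least 3 of the 18 libraries and were tested. A gene is said to have risen or fallen at a Benjamini-Hochberg adjusted p under 0.01, and to be called where the change also reached 2 on the log2 scale. The steps in the FPKM values of genes with 1 annotated transcript implied 18649500 to 24337000 fragments in each of these 6 libraries (tolerance 0.1 of a read). At this depth 3 reads on 1 kb correspond to 0.123 to 0.161 FPKM. The GFP libraries were less alike (pairwise r = 0.957 to 0.984 over genes tested) than the Co libraries (0.975 to 0.986), and GFP 817 was the GFP library nearest to Co in 249 of the 310 genes called higher. Each group held 1 library with Y-linked genes above Xist, GFP 817 and Co 810.

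The labelled cell type was checked against its markers. Of 9 bulge markers other than Krt15, 5 fell in GFP (Cd34, Cd200, Lgr5, Lhx2 and Postn) and 0 rose. The summed level of these 9 markers was 2578, 2490.4 and 2717 FPKM in Co and 942, 1091 and 993 FPKM in GFP, so that the groups were far apart. Krt15 was listed at 11261, 11764 and 0 FPKM in Co and 3163, 4004 and 5405 FPKM in GFP. The 0 in Co 828 stood beside Krt5 at 3163, 3369.9 and 3902 FPKM, and Krt15 is therefore given without a test. The GFP and Co libraries also differed in markers of other cells. The sum of 8 suprabasal markers was 1169 to 1459 FPKM in Co and 2211 to 4725 FPKM in GFP, and of these Krt1, Ivl and Krtdap rose. The sum of 9 upper follicle and sebaceous markers was 129 to 135 FPKM in Co and 179.8 to 504 FPKM in GFP, and of these Plet1 rose. The part of this sum in the rises of Plet1 and of sebaceous lipid genes given below was not tested. The sum of 16 endothelial markers was 64.3 to 106.8 FPKM in Co, 2.38 to 39.7 FPKM in GFP and 538 to 1718 FPKM in Tom, and 7 of the 16 fell (4 without GFP 817, 3 without either Co 810 or Co 825, 4 without Co 828). The 10 leukocyte markers summed to 5.98 to 10.1 FPKM in Co and 14.1 to 67.9 FPKM in GFP, with the highest sum in GFP 817. The 9 neutrophil markers measured summed to 1.53 to 1.88 FPKM in Co and 8.40 to 8.97 FPKM in GFP. In sorted bulk cells, a change in the share of a cell type and a change in RNA per cell cannot be told apart.

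**Figure D1:**
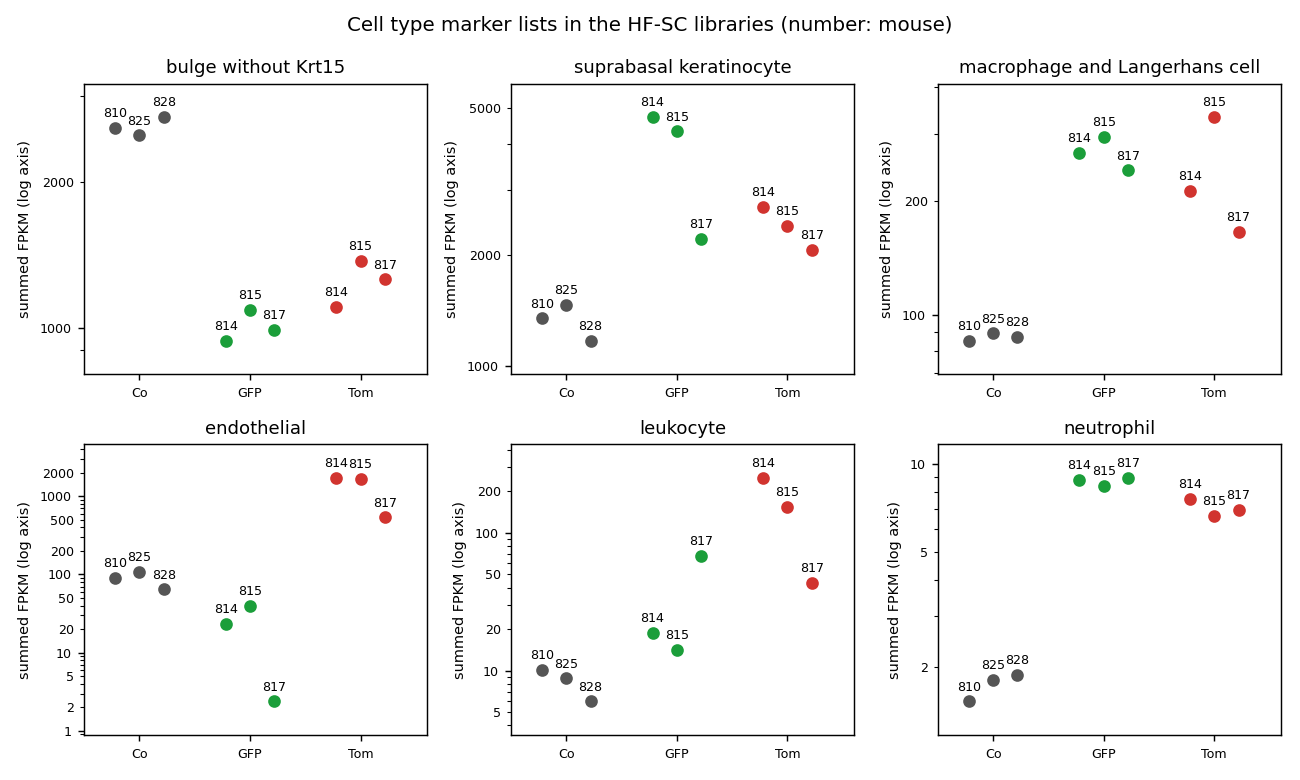
Summed FPKM (log axis) of 6 cell type marker lists in each HF-SC library, with the mouse number above each point, for Co (grey), GFP (green) and Tom (red). The sum of the bulge markers without Krt15 lies at 2490.4 to 2717 FPKM in Co and 942 to 1091 FPKM in GFP, and the endothelial sum is lowest in GFP 817 (2.38 FPKM) and highest in Tom 814 (1718 FPKM).

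The GFP bulge cells differed from Co over a large part of the transcriptome. Of all genes tested 1662 (13.0%) rose and 1574 (12.3%) fell, with a median change of -0.047. With libraries rescaled to the same upper quartile 1499 rose and 2062 fell. As deposited, 310 (2.43%) were called higher and 81 (0.635%) were called lower. The rises were larger than the falls, reaching 10.0 on the log2 scale against 4.07, with medians of 2.74 and 2.33. The genes called higher were mostly scarce in Co, where their median level was 1.85 FPKM and 103 of them stayed under 1 FPKM in every library. The genes called lower had a median of 27.9 FPKM in Co and 4.11 FPKM in GFP, and only 3 of them lay under 1 FPKM in every GFP library. Without GFP 817, 393 genes were called higher and 91 lower.

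**Figure D2:**
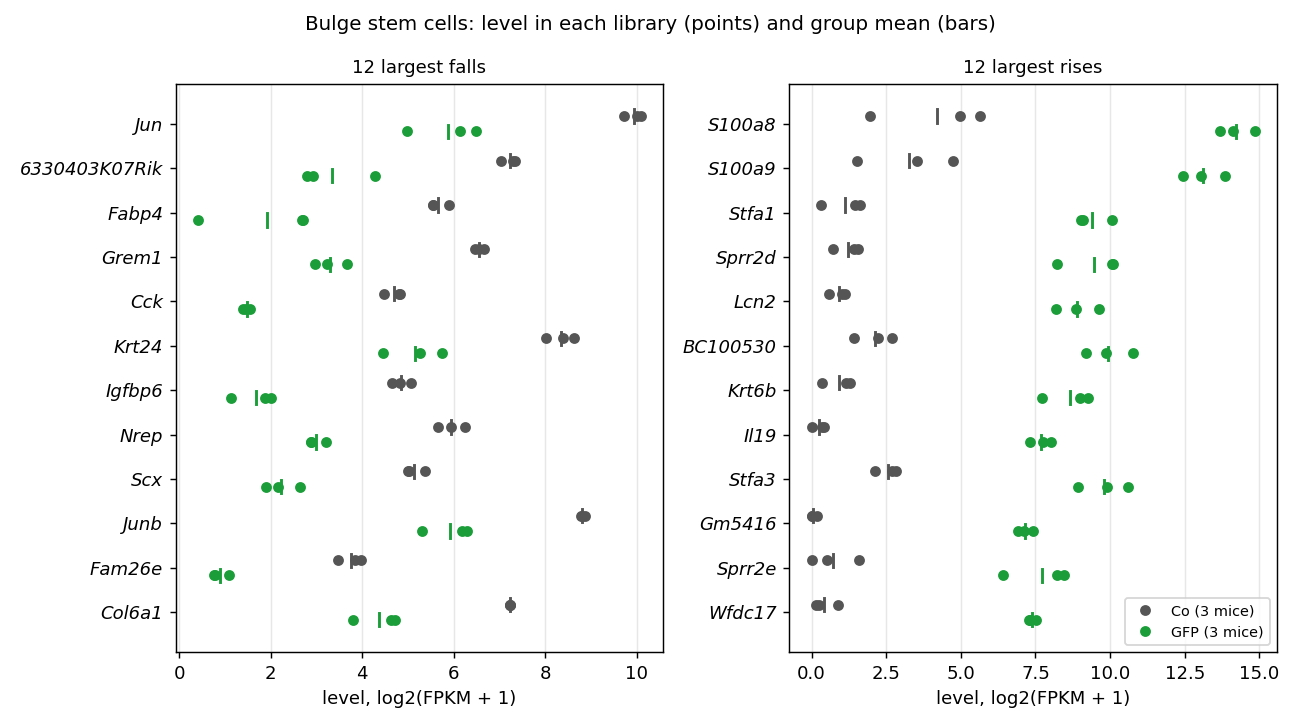
Level of the 12 genes with the largest falls (left) and the 12 with the largest rises (right) among called genes, as log2(FPKM + 1) in each Co (grey) and GFP (green) library, with bars at the group means. The points of the groups do not overlap in any of the 24 genes, and the lowest GFP value of Krt6b and of the Sprr genes is that of GFP 817.

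Both targeted genes fell. Jun (chr4:94715725-94718913, NCBIM37) was at 835, 1028 and 1086 FPKM in Co and 69.6, 88.4 and 30.4 FPKM in GFP, and Junb (chr8:87500811-87502617) at 463, 436 and 443 FPKM in Co and 71.3, 77.5 and 38.6 FPKM in GFP. Every GFP library lay below every Co library for both genes, but neither was at 0 in any GFP library. Jun fell by 4.07 ± 0.40 on the log2 scale (SE, adjusted p = 1.53e-06), the largest fall of all genes, and Junb fell by 2.88 ± 0.30 on the log2 scale (SE, adjusted p = 2.89e-06). Among the other 16 tested genes of the AP-1 family, 3 fell and 1 rose, against 12.3% and 13.0% of all genes (median change -0.50). Atf3, a stress-induced factor that pairs with Jun, fell from 1262, 989 and 1294 FPKM to 338, 316 and 529 FPKM, a change of -1.61 ± 0.39 (SE), adjusted p = 0.00414. Jund, the remaining Jun protein, fell by 1.30 ± 0.24 on the log2 scale (SE, adjusted p = 6.49e-04), and Maff fell by 1.11. The partner Fos was at 2841, 2094 and 2403 FPKM in Co and 865, 900.3 and 1284 FPKM in GFP, and did not pass the test (adjusted p = 0.02). Fosb showed a log2 difference of -1.20 (adjusted p = 0.0349), and the Fos-related antigens Fosl1 and Fosl2 ones of 0.26 and 0.04 (adjusted p = 0.614 and 0.867). No AP-1 gene outside Jun and Junb was called in either direction.

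Immediate-early genes outside AP-1 and targets of the mechanosensitive coactivators Yap1 and Wwtr1 held a few genes that fell. Of 24 immediate-early genes 4 fell (16.7%, near the 12.3% of all genes) and 1 rose, with a median change of -0.34, and the fall count was 1 without GFP 814, GFP 815 or Co 810 and 2 without Co 828. Egr1, the zinc finger factor induced by serum and wounding, was at 1241, 1035 and 1053 FPKM in Co and 356, 374 and 586 FPKM in GFP (change -1.37 ± 0.34 (SE), adjusted p = 0.00534). Klf6, Rhob and Gadd45g fell by 1.45, 1.12 and 1.06, and Egr3 rose by 0.98. Of 10 YAP and TEAD targets or partners 4 fell and 1 rose (40% and 10% against 12.3% and 13.0% of all genes). The fall count was 1 without GFP 814, GFP 815, Co 825 or Co 828 and 2 without Co 810. Ctgf, a matricellular protein and a standard readout of YAP, was at 825, 579 and 1039 FPKM in Co and 122, 136 and 129 FPKM in GFP. The highest GFP library lay below the lowest Co library, and Ctgf fell by 2.61 ± 0.22 on the log2 scale (SE, adjusted p = 4.37e-07). Its relative Cyr61 fell by 1.56 ± 0.41 on the log2 scale (SE, adjusted p = 0.00706), while the tissue factor gene F3 rose by 1.45. F3 did not pass in a fit of GFP and Co alone or with libraries rescaled to the same median (limma, adjusted p = 0.0431 and 0.0109). Its smallest change was 1.17, without GFP 815 (limma, adjusted p = 0.0544). Yap1 itself showed a log2 difference of -0.50 (adjusted p = 0.116).

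Several transcription factors of the bulge fell. Of 23 tested bulge factors 9 fell (39.1% against 12.3% of all genes) and 0 rose, with a median change of -0.70. Lhx2, a LIM homeobox factor that holds the stem cells in the niche, was at 165, 102 and 109 FPKM in Co and 32.3, 47.9 and 35.9 FPKM in GFP. It fell by 1.66 ± 0.26 on the log2 scale (SE, adjusted p = 1.38e-04), and the groups did not overlap. Hopx, a homeodomain cofactor that marks quiescent bulge cells, was at 260.4, 184 and 214 FPKM in Co and 76.7, 71.1 and 83.3 FPKM in GFP and fell by 1.49. Id2 and Id3, inhibitors of bHLH factors that respond to BMP, fell by 1.50 and 1.15. Tbx1, Nfib, Foxc1, Gli2 and Foxp1 fell by 1.10, 1.05, 1.01, 0.99 and 0.84, of which Foxc1 is known to hold bulge cells in quiescence. Sox9 was at 94.6, 72.3 and 72.3 FPKM in Co and 38.9, 53.2 and 46.8 FPKM in GFP (change -0.77 ± 0.30 (SE), adjusted p = 0.0524), and Nfatc1 at 58.2, 75.2 and 62.1 FPKM in Co and 30.6, 51.0 and 39.3 FPKM in GFP (change -0.70 ± 0.28 (SE), adjusted p = 0.0595). Tcf7l1 showed a log2 difference of -0.28 (adjusted p = 0.186). No factor of the list reached a change of 2 on the log2 scale.

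Surface, keratin and niche genes of the bulge gave larger falls. Of 32 tested members 11 fell (34.4%) and 2 rose, with a median change of -0.71, and the fall count was 7 without GFP 814, Co 810 or Co 828. Krt24 (chr11:99141273-99146576), a keratin concentrated in the bulge, was at 257, 334 and 395 FPKM in Co and 20.8, 37.2 and 52.3 FPKM in GFP. It fell by 3.20 ± 0.58 on the log2 scale (SE, adjusted p = 4.67e-04), and no GFP library came near the Co range. Aspn, an extracellular proteoglycan that binds TGF-beta, was at 67.5, 31.4 and 39.0 FPKM in Co and 8.57, 4.73 and 3.92 FPKM in GFP and fell by 2.79 ± 0.30 on the log2 scale (SE, adjusted p = 3.71e-06). Cd34 (chr1:196765015-196787486), the antigen on which the cells were sorted, was at 889, 639.8 and 680.2 FPKM in Co and 161, 206 and 228 FPKM in GFP and fell by 1.89 ± 0.35 on the log2 scale (SE, adjusted p = 5.87e-04), but did not pass with a pseudocount of 0.1 (adjusted p = 0.0224). S100a4, Cd200, Fgf18, Lgr5 and Postn fell by 1.87, 1.76, 1.68, 1.68 and 1.41. Of these, Lgr5, the R-spondin receptor of stem cells, was at 143, 175 and 156 FPKM in Co and 33.8, 50.6 and 66.6 FPKM in GFP, and Fgf18, a growth factor that prolongs the resting phase, at 43.4, 37.6 and 28.6 FPKM in Co and 5.16, 11.9 and 18.4 FPKM in GFP. Vwf, which is also an endothelial gene, fell by 1.84, and the endothelial sum moved with it as given above, and its part in that fall was not tested. Plet1, a surface protein of the follicle junctional zone, rose by 1.54 ± 0.23 on the log2 scale (SE, adjusted p = 1.12e-04), and the phosphatase Ptprz1 rose by 1.40. The integrin subunit Itga6 (CD49f), the other antigen of the sort, was at 87.7, 106 and 94.5 FPKM in Co and 117, 130.4 and 168 FPKM in GFP (change 0.51 ± 0.28 (SE), adjusted p = 0.16).

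The BMP antagonists Grem1 and Nog were among the genes called lower. Of 35 BMP and TGF-beta genes 10 fell (28.6%) and 3 rose. Grem1 (chr2:113586321-113598803), which encodes the BMP antagonist gremlin, was at 99.8, 93.2 and 86.6 FPKM in Co and 6.86, 11.6 and 8.42 FPKM in GFP. All 3 GFP values lay far below the lowest Co value, and Grem1 fell by 3.27 ± 0.16 on the log2 scale (SE, adjusted p = 2.44e-09). Nog (chr11:89161952-89163873), the antagonist noggin, was at 35.4, 21.9 and 22.7 FPKM in Co and 2.0, 2.93 and 4.40 FPKM in GFP and fell by 2.76 ± 0.26 on the log2 scale (SE, adjusted p = 1.19e-06). Sostdc1, an antagonist of both BMP and Wnt, was at 323, 349 and 376 FPKM in Co and 78.4, 83.1 and 101 FPKM in GFP and fell by 1.99 ± 0.23 on the log2 scale (SE, adjusted p = 8.39e-06). Nbl1, Fstl3, Fstl1 and Bambi, which bind or block ligands of this family, fell by 1.62, 1.30, 1.19 and 1.17. Among ligands, Bmp6 fell by 1.69 and Tgfb2 by 0.60, whereas Tgfb1, Inhbb and Bmp7 rose by 1.38, 0.97 and 0.78. Bmp4 and Bmp2 showed log2 differences of -0.28 and -1.18 (adjusted p = 0.513 and 0.0197). The receptors Bmpr1a and Tgfbr2 showed log2 differences of 0.15 and 0.16 (adjusted p = 0.631 and 0.642).

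Of 35 Wnt genes 9 fell (25.7%) and 2 rose, and 4 fell without GFP 814 or without Co 828. The secreted Wnt inhibitors Dkk3, Sfrp1 and Wif1 fell by 1.23, 1.21 and 0.80. Axin2, a feedback target of beta-catenin, was at 2.53, 2.55 and 3.73 FPKM in Co and 0.726, 0.933 and 1.21 FPKM in GFP and fell by 1.00 ± 0.24 on the log2 scale (SE, adjusted p = 0.0043). The ligand Wnt11 fell by 1.22 and Wnt5b by 1.15, while Wnt5a, a non-canonical ligand raised in inflamed skin, rose by 1.16 ± 0.15 on the log2 scale (SE, adjusted p = 1.99e-05). Ctnnb1 and Lef1 showed log2 differences of -0.16 and 0.40 (adjusted p = 0.332 and 0.105). Of 11 Hedgehog genes 2 fell, Cdon and Hhip, and 1 rose, Foxm1, a factor that also drives mitotic genes, shares of 18.2% and 9.09% against 12.3% and 13.0% of all genes. The receptor Ptch1 and the effector Gli1 showed log2 differences of -0.37 and -0.28 (adjusted p = 0.324 and 0.144). Of 14 Notch genes 1 fell and 2 rose (Notch3 by 1.24 and Nrarp by 1.12), which is near the background of all genes.

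The remaining genes of the 12 largest falls encode peptides, matrix proteins and a few intracellular proteins. Cck, the precursor of the peptide cholecystokinin, was at 27.2, 21.2 and 27.0 FPKM in Co and 1.62, 1.94 and 1.77 FPKM in GFP and fell by 3.23 ± 0.17 on the log2 scale (SE, adjusted p = 8.85e-09). Igfbp6, which binds insulin-like growth factor 2, was at 27.5, 24.1 and 32.2 FPKM in Co and 2.99, 2.67 and 1.21 FPKM in GFP and fell by 3.17 ± 0.29 on the log2 scale (SE, adjusted p = 9.36e-07). Col6a1, a chain of collagen VI, was at 149, 149 and 148 FPKM in Co and 12.8, 23.7 and 25.1 FPKM in GFP and fell by 2.85 ± 0.32 on the log2 scale (SE, adjusted p = 6.95e-06). For each of these 3 genes all GFP values lay well under the Co range. Scx, the tendon factor scleraxis, was at 40.4, 31.4 and 30.8 FPKM in Co and 3.43, 5.27 and 2.74 FPKM in GFP and fell by 2.89. Nrep, a protein known from regenerating nerve, was at 49.4, 59.9 and 74.5 FPKM in Co and 6.40, 8.23 and 6.35 FPKM in GFP and fell by 2.95. Fam26e and 6330403K07Rik fell by 2.87 and 3.89, and neither was at 0 in any GFP library. Among 44 genes of the basement membrane, integrins and collagens, 5 fell and 2 rose, 11.4% and 4.55% against 12.3% and 13.0% of all genes. Col18a1, the source of endostatin, was at 93.3, 132 and 117 FPKM in Co and 18.2, 27.9 and 29.8 FPKM in GFP and fell by 2.14 ± 0.37 on the log2 scale (SE, adjusted p = 3.46e-04). Egfl6, a bulge basement membrane protein that anchors nerve endings, fell by 2.02, Sparc by 2.01 and Col4a2 by 1.39, while Cd44 and Spp1 rose by 1.33 and 1.12. Sparc was at 183, 147 and 190 FPKM in Co, 41.0, 46.1 and 39.3 FPKM in GFP and 373, 321 and 137 FPKM in Tom. The endothelial sum given above was highest in Tom, and its part in the fall of Sparc was not tested. Col17a1, the hemidesmosomal collagen of stem cells, was at 1162, 1119.7 and 1040.4 FPKM in Co and 300.2, 477 and 576 FPKM in GFP (change -1.34 ± 0.48 (SE), adjusted p = 0.0361).

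Of 43 axon guidance, Eph and neurotrophin genes 11 fell (25.6%) and 6 rose. The semaphorin receptors Plxna2 and Nrp1 fell by 2.11 and 1.55, and the ligand Sema3e by 1.45. The neurotrophins Ntf3 and Bdnf fell by 1.39 and 0.93.

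Among the genes called lower in GFP, Fabp4, Sele, Ackr1, Plvap, Selp, Aqp1 and Esam lay higher in every Tom library than in any Co library, and all of them are expressed by endothelium. Fabp4, a fatty acid carrier of capillaries and fat, was at 58.3, 46.0 and 45.4 FPKM in Co and 5.38, 5.50 and 0.328 FPKM in GFP but at 819, 567 and 84.2 FPKM in Tom, and fell by 3.73 ± 0.69 on the log2 scale (SE, adjusted p = 5.41e-04) from Co to GFP. Plvap, the diaphragm protein of vessel fenestrae, was at 29.6, 33.4 and 18.9 FPKM in Co and 7.00, 12.0 and 0.167 FPKM in GFP and at 523, 505 and 222 FPKM in Tom, and fell by 2.48 ± 0.62 on the log2 scale (SE, adjusted p = 0.00513). Plvap did not pass in a fit of GFP and Co alone or with a pseudocount of 0.1 (limma, adjusted p = 0.0394 and 0.0203). It also did not pass with no filter on low values, without Co 810 or without Co 825 (adjusted p = 0.0114, 0.0186 and 0.0214). Sele, the adhesion receptor E-selectin, was at 20.8, 21.9 and 12.2 FPKM in Co and 4.12, 2.70 and 0.0867 FPKM in GFP and at 307, 428 and 142 FPKM in Tom. It fell by 2.78 ± 0.45 on the log2 scale (SE, adjusted p = 1.91e-04). In all of these the lowest value was that of GFP 817, the library with the lowest endothelial sum, and their levels moved with that sum, whose part in these falls was not tested.

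Of 25 clock and output genes 4 fell and 2 rose (median change -0.39), which is near the background of all genes. Usp2, a clock-controlled ubiquitin protease, was at 21.2, 16.3 and 16.0 FPKM in Co and 2.47, 2.69 and 3.76 FPKM in GFP and fell by 2.25 ± 0.35 on the log2 scale (SE, adjusted p = 1.28e-04). Tsc22d3, the glucocorticoid-induced leucine zipper, was at 574, 399.8 and 607 FPKM in Co and 100.4, 50.1 and 320.2 FPKM in GFP and fell by 2.13 ± 0.57 on the log2 scale (SE, adjusted p = 0.00804), but did not pass in a fit of GFP and Co alone (adjusted p = 0.023) or without any 1 library other than GFP 817, the smallest change being -1.53 without GFP 815 (adjusted p = 0.0502). Per1, also induced by glucocorticoids, showed a log2 difference of -0.99 (adjusted p = 0.0287), and Arntl one of -0.61 (adjusted p = 0.0307). Of 31 heat shock and chaperone genes 6 fell and 6 rose, 19.4% each way against 12.3% and 13.0% of all genes. The small heat shock genes Cryab, Hspb8 and Hspb1 fell by 1.90, 1.75 and 1.42, while the mitochondrial chaperones Hspd1 and Hspa9 rose by 1.08 and 1.03. Of 21 chemokines 3 fell (14.3%, near the 12.3% of all genes), and 1 fell without GFP 814, Co 810 or Co 828. Ccl27a, which draws T cells to the skin, was at 139, 148 and 205 FPKM in Co and 49.0, 40.7 and 24.1 FPKM in GFP and fell by 2.12 ± 0.35 on the log2 scale (SE, adjusted p = 2.03e-04). Cxcl14, a chemokine of resting epithelium, fell by 1.82, and Cxcl12, the ligand of Cxcr4, by 1.27.

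**Figure D3:**
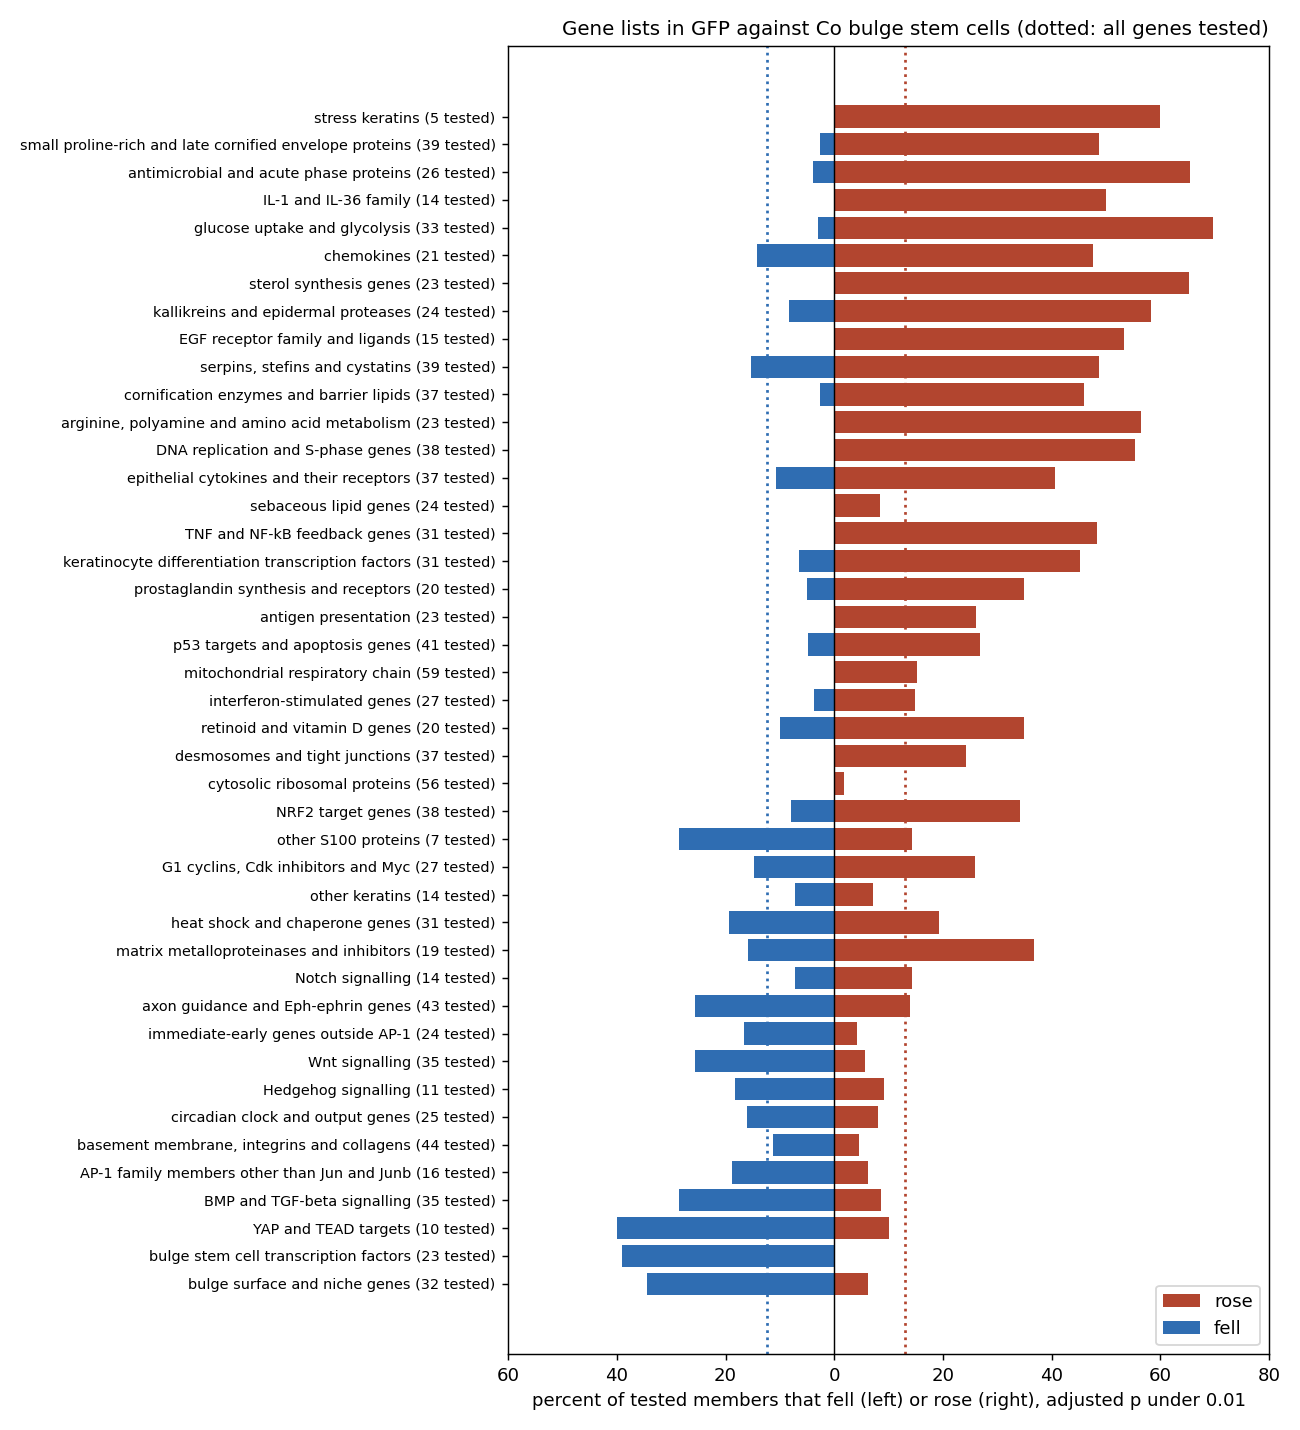
Percent of tested members of each gene list that fell (blue, left) or rose (red, right) at adjusted p under 0.01, ordered by the median change, with dotted lines at the 12.3% and 13.0% of all genes tested. Bulge genes, YAP and TEAD targets and BMP genes are at the bottom, and keratin, cornified envelope and antimicrobial genes at the top.

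Antimicrobial and alarmin genes gave the largest rises. Of 26 tested antimicrobial and acute phase genes 17 rose (65.4% against 13.0% of all genes) and 1 fell, with a median change of 2.30, and 10 rose without GFP 814 or without GFP 815. S100a8 (chr3:90472993-90473956), a subunit of the alarmin calprotectin, was at 30.2, 2.87 and 49.2 FPKM in Co and 29379, 17977 and 13146 FPKM in GFP. S100a9 (chr3:90496554-90499643), its partner, was at 10.5, 1.84 and 25.5 FPKM in Co and 14692, 8404 and 5545 FPKM in GFP. The lowest GFP library of either gene was far above the highest Co library, and the rises were 10.03 ± 1.06 and 9.85 ± 0.95 on the log2 scale (SE, adjusted p = 3.48e-06 and 1.33e-06). Lcn2, a siderophore-binding protein of innate defence, was at 1.03, 0.502 and 1.15 FPKM in Co and 791, 466 and 288 FPKM in GFP and rose by 7.98 ± 0.58 on the log2 scale (SE, adjusted p = 1.09e-07). Defb3, a beta-defensin, was at 0, 0 and 0.127 FPKM in Co and 153, 124 and 46.2 FPKM in GFP, and rose by 6.54. With Co at or under the floor of 3 reads, that size depends on the pseudocount. The protease inhibitor Slpi was at 1.00, 1.96 and 1.08 FPKM in Co and 215, 250.2 and 97.9 FPKM in GFP and rose by 6.25 ± 0.42 on the log2 scale (SE, adjusted p = 5.53e-08). Wfdc17, of the same WAP domain family, was at 0.832, 0.114 and 0.175 FPKM in Co and 159.7, 181 and 154 FPKM in GFP, and all 3 GFP values were close together. Neutrophil markers moved with these rises, with the sum of the 9 markers at 1.53 to 1.88 FPKM in Co and 8.40 to 8.97 FPKM in GFP, and the 1 marker tested, Cxcr2, rose by 1.78. Their part in the rises was not tested. Of 7 other S100 genes 1 rose and 2 fell, with changes of 1.01, -1.50 and -1.14 for S100a14, S100a3 and S100a10.

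Many genes of the cornified envelope rose, mainly the small proline-rich and late cornified envelope 3 members. The suprabasal marker sum given above, of which Ivl is a member, moved with this group and with the cornification enzymes and junction genes below, and its part in their rises was not tested. Of 39 tested members 19 rose (48.7%) and 1 fell, with a median change of 2.32, and 23 rose without GFP 817. Sprr2d was at 0.644, 1.65 and 1.93 FPKM in Co and 1102, 1071 and 298 FPKM in GFP, and Sprr2e at 0, 1.99 and 0.444 FPKM in Co and 299.8, 351 and 84.6 FPKM in GFP. Both were lowest in GFP 817, yet that library was still above all Co libraries, and they rose by 8.24 and 7.00. The involucrin gene Ivl was at 3.27, 6.01 and 2.92 FPKM in Co and 54.1, 53.1 and 20.7 FPKM in GFP and rose by 3.03 ± 0.45 on the log2 scale (SE, adjusted p = 9.25e-05). Lce3a and Lce3b were at 0 in every Co library. They were at 41.0, 45.5 and 0.843 and 44.3, 42.1 and 0.675 FPKM in GFP, of which GFP 817 held the lowest. Loricrin (Lor), the main envelope protein of normal epidermis, was at 5.54, 10.8 and 5.17 FPKM in Co and 8.49, 7.13 and 1.96 FPKM in GFP (change -0.35 ± 0.50 (SE), adjusted p = 0.605), and Lce1m fell by 2.58. Sprr2, Lce3, stefin A and Serpinb3 genes are near-identical copies whose reads could have been split between members, so the level of any single copy is uncertain.

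The stress keratins Krt6b, Krt16 and Krt17, which mark wounded and psoriatic epidermis, rose, and Krt6a and Krt75 did not pass. Krt6b was at 1.22, 0.263 and 1.45 FPKM in Co and 616, 504 and 210.0 FPKM in GFP and rose by 7.73 ± 0.76 on the log2 scale (SE, adjusted p = 1.61e-06). Krt16 was at 13.5, 8.86 and 7.40 FPKM in Co and 822, 732 and 114 FPKM in GFP and rose by 5.27 ± 0.74 on the log2 scale (SE, adjusted p = 4.97e-05). Krt17 was at 219, 227 and 232 FPKM in Co and 2522, 1902 and 1127 FPKM in GFP and rose by 2.95. Krt6a, already abundant in Co, was at 188, 146 and 119 FPKM in Co and 522, 435 and 182 FPKM in GFP (change 1.22 ± 0.66 (SE), adjusted p = 0.159). Among 14 other keratins of the list Krt1, the suprabasal keratin, rose and Krt80 fell. Outside the lists Krt42, named here after its values were seen, was at 1.95, 2.15 and 0.663 FPKM in Co and 15.9, 12.7 and 3.92 FPKM in GFP and rose by 2.07 ± 0.43 on the log2 scale (SE, adjusted p = 0.00133), and Krt32 fell by 1.40. Krt1 was at 62.6, 84.9 and 66.2 FPKM in Co and 733, 828 and 219 FPKM in GFP and rose by 2.84 ± 0.47 on the log2 scale (SE, adjusted p = 2.39e-04), whereas its partner Krt10 was at 292, 327 and 231 FPKM in Co and 354, 587 and 398 FPKM in GFP (change 0.63 ± 0.35 (SE), adjusted p = 0.17). The basal keratin Krt5 showed a log2 difference of -0.50 (adjusted p = 0.192). Its partner Krt14 was at 2085, 2479 and 2292 FPKM in Co and 4612, 4050.3 and 4339 FPKM in GFP, and is given without a test because it was listed at 0 in 3 of the basal keratinocyte libraries of the series. The suprabasal marker sum moved with these genes, and its part in their rise was not tested.

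Many protease inhibitors and proteases rose. Of 39 serpins, stefins and cystatins 19 rose (48.7%) and 6 fell. The stefin A genes Stfa1, BC100530, Stfa3 and Gm5416, inhibitors of cysteine cathepsins, were all among the 12 largest rises. Stfa1 was at 1.75, 0.256 and 2.06 FPKM in Co and 1064, 542 and 516 FPKM in GFP, and rose by 8.25 ± 0.71 on the log2 scale (SE, adjusted p = 5.07e-07). Gm5416 was at 0, 0 and 0.140 FPKM in Co and 168, 136 and 119 FPKM in GFP, with Co at or under the floor. Serpinb3a, a close relative of the human squamous cell carcinoma antigens, was at 0.838, 1.68 and 3.25 FPKM in Co and 552, 384 and 173 FPKM in GFP and rose by 6.92. Spink2, a serine protease inhibitor, went the other way and fell by 2.75 ± 0.23 on the log2 scale (SE, adjusted p = 4.27e-07), and the collagen chaperone Serpinh1 fell by 1.38. Of 24 kallikreins and epidermal proteases 14 rose (58.3%) and 2 fell. Klk13 was at 0.0944, 0.104 and 0.318 FPKM in Co and 103, 78.4 and 27.1 FPKM in GFP and Klk6 at 0.0391, 0.515 and 0.363 FPKM in Co and 74.1, 64.5 and 6.80 FPKM in GFP, and they rose by 5.72 and 4.71, while Klk5 and Klk7, the main desquamation proteases, showed log2 differences of -0.20 and 1.93 (adjusted p = 0.774 and 0.0506).

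Of 37 cornification enzymes and barrier lipid genes 17 rose (45.9%) and 1 fell, and 23 rose without GFP 817. Tgm1, the transglutaminase that crosslinks the envelope, was at 1.24, 2.88 and 1.40 FPKM in Co and 34.5, 39.1 and 19.5 FPKM in GFP and rose by 3.48 ± 0.51 on the log2 scale (SE, adjusted p = 8.12e-05). Alox8, Casp14 and Abca12, the last a lipid transporter of lamellar granules, rose by 3.53, 2.84 and 2.30. Of 37 junction genes 9 rose (24.3% against 13.0% of all genes) and 0 fell. Gjb2, the gap junction protein connexin 26, was at 0.893, 1.74 and 1.55 FPKM in Co and 161, 134 and 45.4 FPKM in GFP and rose by 5.41 ± 0.63 on the log2 scale (SE, adjusted p = 8.81e-06). Gjb6, Cldn4 and Dsc2 rose by 2.68, 3.07 and 2.52. Among 31 transcription factors of keratinocyte differentiation 14 rose (45.2%) and 2 fell. Ehf, an epithelial Ets factor, was at 1.76, 3.38 and 2.45 FPKM in Co and 85.0, 78.6 and 67.4 FPKM in GFP and rose by 4.49 ± 0.19 on the log2 scale (SE, adjusted p = 5.28e-10), and Grhl3, Elf3, Ovol1 and Zfp750 rose by 3.32, 3.14, 2.24 and 2.16. Trp63, the lineage factor of all stratified epithelia, did not pass (change -0.44 ± 0.31 (SE), adjusted p = 0.275).

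Sequence upstream of the called genes was described with RefSeq promoters (build GRCm38.p6), a window from 250 bases before to 50 bases after each annotated start site, which matched 9490 of the 12751 genes tested. The AP-1 element (TGANTCA, with N any base, read on both strands) occurred in the window of 616 genes, or 6.49%. It occurred in 38 of the 225 matched genes called higher (16.9%) and in 11 of the 58 matched genes called lower (19.0%). Without the Sprr genes, several of which are copies with the element at almost the same place, the share among genes called higher was 13.4%. The related cyclic AMP element (TGACGTCA) occurred in 3.65% of all matched genes, 1.78% of those called higher and 0 of the 58 called lower, and the E-box CACGTG in 11.8%, 8.0% and 6.90%. The elements lay before the start site in 38 of 41 occurrences among genes called higher and in 10 of 11 among genes called lower, with medians at -116 and -90 bases. No test was made of these shares, and a match of letters is no evidence of binding.

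**Figure D4:**
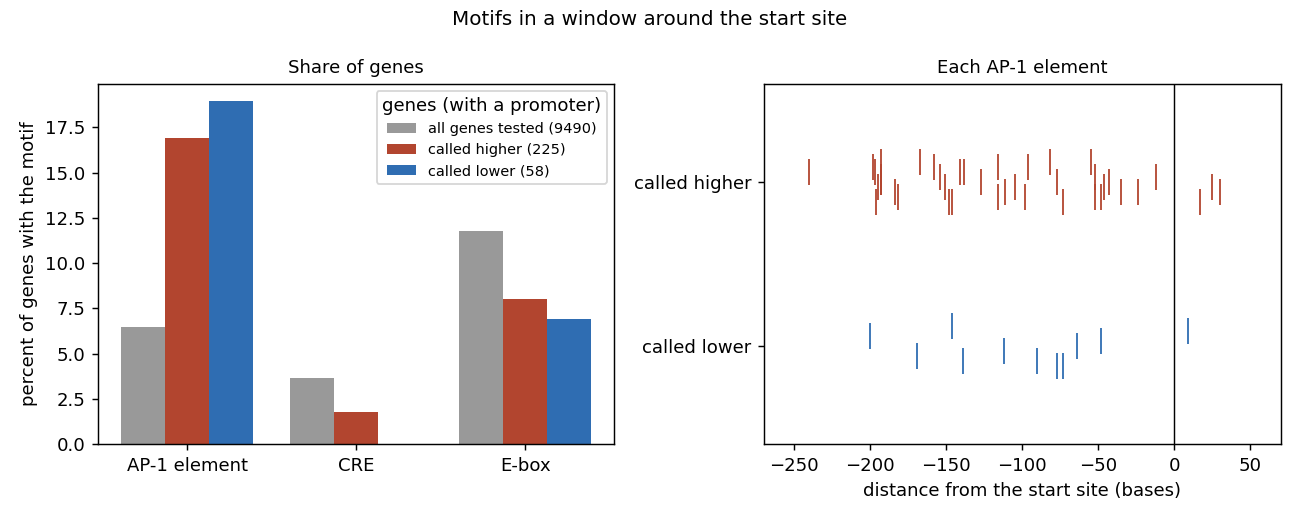
Left, percent of genes with an AP-1 element, a CRE or an E-box in the promoter window, for all genes tested (grey), genes called higher (red) and genes called lower (blue). Right, distance of each AP-1 element from the start site in bases, showing 41 elements of genes called higher and 11 of genes called lower. The AP-1 share is 6.49% for all genes and 16.9% and 19.0% for the called genes.

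Of these windows 6 are printed, to show the element in genes that moved in opposite directions, with the letters of the element in capitals. The first 3 belong to genes that rose. Sprr2d lies on the plus strand at chr3:92338890-92339189, Il1a on the minus strand at chr2:129309923-129310222 and Mmp13 on the plus strand at chr9:7272264-7272563 (GRCm38.p6).
Sprr2d: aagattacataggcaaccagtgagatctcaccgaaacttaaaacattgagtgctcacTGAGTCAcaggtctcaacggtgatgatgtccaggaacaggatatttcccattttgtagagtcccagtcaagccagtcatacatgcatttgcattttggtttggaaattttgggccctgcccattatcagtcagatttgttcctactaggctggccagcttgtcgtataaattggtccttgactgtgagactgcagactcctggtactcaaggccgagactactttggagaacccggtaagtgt
Il1a: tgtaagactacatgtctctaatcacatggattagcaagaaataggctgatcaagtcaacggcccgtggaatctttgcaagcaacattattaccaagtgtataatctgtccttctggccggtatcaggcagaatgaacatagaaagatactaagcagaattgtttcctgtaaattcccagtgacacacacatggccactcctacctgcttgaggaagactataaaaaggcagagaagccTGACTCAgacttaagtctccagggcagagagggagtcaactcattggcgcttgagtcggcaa
Mmp13: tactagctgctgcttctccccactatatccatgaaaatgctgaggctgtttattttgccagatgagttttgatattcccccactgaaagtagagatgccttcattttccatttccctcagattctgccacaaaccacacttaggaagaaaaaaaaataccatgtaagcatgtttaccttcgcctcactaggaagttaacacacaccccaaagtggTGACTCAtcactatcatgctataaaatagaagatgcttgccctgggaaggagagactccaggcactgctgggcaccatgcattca
The other three belong to genes that fell. Col6a1 lies on the minus strand at chr10:76725995-76726294, Ecm1 on the minus strand at chr3:95739520-95739819 and Ccl27a on the minus strand at chr4:41770163-41770462.
Col6a1: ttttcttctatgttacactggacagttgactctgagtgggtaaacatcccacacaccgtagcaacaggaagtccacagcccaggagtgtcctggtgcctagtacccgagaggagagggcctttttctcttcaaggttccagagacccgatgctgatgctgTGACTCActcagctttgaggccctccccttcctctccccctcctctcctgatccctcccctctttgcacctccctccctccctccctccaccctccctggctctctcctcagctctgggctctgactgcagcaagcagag
Ecm1: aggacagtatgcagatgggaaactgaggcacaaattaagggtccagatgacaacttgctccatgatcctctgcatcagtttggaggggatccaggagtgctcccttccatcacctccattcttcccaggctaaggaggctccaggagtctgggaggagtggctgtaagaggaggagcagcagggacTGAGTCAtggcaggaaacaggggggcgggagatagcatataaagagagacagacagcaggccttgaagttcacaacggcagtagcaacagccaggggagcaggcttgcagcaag
Ccl27a: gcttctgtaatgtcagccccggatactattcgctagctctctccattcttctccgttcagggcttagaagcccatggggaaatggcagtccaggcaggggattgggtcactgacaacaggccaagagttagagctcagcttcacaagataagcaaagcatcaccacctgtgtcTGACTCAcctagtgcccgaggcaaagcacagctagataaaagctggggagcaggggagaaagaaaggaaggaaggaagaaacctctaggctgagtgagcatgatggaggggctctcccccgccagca
Counted from the start site, the first base of the element lay at -193, -12 and -35 in Sprr2d, Il1a and Mmp13, and at -90, -64 and -77 in Col6a1, Ecm1 and Ccl27a.

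Some epithelial cytokines rose, among them Tslp and Il1a. Tslp, an alarmin cytokine of epithelia that acts on dendritic cells and type 2 lymphocytes, was at 1.93, 1.65 and 1.81 FPKM in Co and 133, 131 and 109 FPKM in GFP. Every GFP value was many times the highest Co value, and Tslp rose by 5.48 ± 0.25 on the log2 scale (SE, adjusted p = 9.89e-10). Il1a, the interleukin 1 stored in keratinocytes, was at 0.963, 0.922 and 0.603 FPKM in Co and 78.7, 89.8 and 38.8 FPKM in GFP and rose by 5.18 ± 0.36 on the log2 scale (SE, adjusted p = 8.32e-08). Il19, a cytokine of the IL-10 family that acts on keratinocytes, was at 0.286, 0 and 0.321 FPKM in Co and 216, 158 and 257 FPKM in GFP, and was the largest rise of this list at 7.44. Of 37 epithelial cytokines and receptors 15 rose (40.5%) and 4 fell, and 1 or 2 fell without GFP 814, GFP 817 or any 1 Co library. Il24, Il23a, Vegfa and Il17c rose by 3.03, 2.73, 2.74 and 2.29. Vegfa, the angiogenic factor, was already expressed in Co, at 2.54, 2.41 and 1.73 FPKM in Co and 24.9, 23.9 and 14.2 FPKM in GFP. Il6 was at 35.1, 14.4 and 13.8 FPKM in Co and 7.91, 5.30 and 3.29 FPKM in GFP and did not pass (change -1.70 ± 0.69 (SE), adjusted p = 0.0631), and the Tslp receptor chain Crlf2 showed a log2 difference of 0.56 (adjusted p = 0.0202). The growth factors Pdgfa and Pdgfb fell by 1.28 and 0.80.

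Of 14 IL-1 and IL-36 family genes 7 rose (50% against 13.0% of all genes) and 0 fell. The IL-36 gene Il1f9 was at 2.52, 3.74 and 3.16 FPKM in Co and 145, 113 and 55.0 FPKM in GFP and rose by 4.57. Il1f6, of the same group, was at 0.387, 0.606 and 0.325 FPKM in Co and 48.5, 43.2 and 6.48 FPKM in GFP and rose by 4.15. The antagonist Il1rn rose by 3.37 ± 0.38 on the log2 scale (SE, adjusted p = 6.18e-06). Il1b was at 0, 0.121 and 0.124 FPKM in Co and 3.95, 2.15 and 19.0 FPKM in GFP and rose by 2.65, and its highest value was that of GFP 817, the GFP library with the highest leukocyte sum. The part of that sum in the rise was not tested. Il33 was at 12.0, 14.8 and 13.4 FPKM in Co and 13.2, 11.1 and 14.1 FPKM in GFP (change -0.06 ± 0.33 (SE), adjusted p = 0.894), and the receptor Il1r1 showed a log2 difference of 0.54 (adjusted p = 0.0502). Of 31 TNF and NF-kB feedback genes 15 rose (48.4%) and 0 fell. Tnf rose by 2.91 ± 0.27 on the log2 scale (SE, adjusted p = 1.09e-06), from 0.502, 0.194 and 0.372 FPKM in Co to 11.9, 9.97 and 6.34 FPKM in GFP, and Tnfaip2, Ccl20 and the atypical inhibitor Bcl3 rose by 5.00, 4.22 and 3.25. Rela and Nfkbia showed log2 differences of 0.18 and -0.07 (adjusted p = 0.402 and 0.826). Among chemokines 10 of 21 rose (47.6%), among them the neutrophil attractants Cxcl3, Cxcl2, Cxcl5 and Cxcl1. Cxcl3 was at 0.192, 0 and 0 FPKM in Co and 73.0, 60.0 and 51.2 FPKM in GFP and Cxcl1 at 21.3, 8.63 and 11.2 FPKM in Co and 236, 148 and 203 FPKM in GFP, and they rose by 5.86 and 3.81.

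Ligands of the EGF receptor rose. Of 15 genes of this family 8 rose (53.3%) and 0 fell. Areg, amphiregulin, was at 2.68, 1.43 and 1.64 FPKM in Co and 59.3, 54.7 and 28.2 FPKM in GFP and rose by 4.01 ± 0.40 on the log2 scale (SE, adjusted p = 1.87e-06). Epgn, Tgfa, Nrg1, Ereg and Hbegf rose by 2.80, 2.71, 2.40, 1.89 and 1.67, of which Nrg1 acts through Erbb3, which rose by 1.23. The receptor Egfr was at 59.5, 76.6 and 77.1 FPKM in Co and 47.3, 59.1 and 73.3 FPKM in GFP (change -0.26 ± 0.28 (SE), adjusted p = 0.495), and the feedback inhibitor Errfi1 showed a log2 difference of -0.82 (adjusted p = 0.0246).

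Matrix proteases and enzymes of prostaglandin synthesis rose in part. Of 19 metalloproteinases and inhibitors 7 rose and 3 fell (36.8% and 15.8% against 13.0% and 12.3% of all genes, median change 0.04), and 4 rose without Co 828. Mmp13, a collagenase of wound edges, was at 0.182, 0.380 and 0.199 FPKM in Co and 79.0, 93.0 and 53.9 FPKM in GFP and rose by 5.90 ± 0.49 on the log2 scale (SE, adjusted p = 3.57e-07). Mmp9, gelatinase B, was at 0.154, 0.0506 and 0 FPKM in Co and 5.17, 18.2 and 20.7 FPKM in GFP and rose by 3.68, and Mmp3, stromelysin 1, was at 9.13, 16.7 and 8.53 FPKM in Co and 65.0, 67.3 and 141 FPKM in GFP and rose by 2.85. The inhibitor Timp1 rose by 1.71 and Timp2 fell by 1.43. Of 20 prostaglandin genes 7 rose and 1 fell (35% and 5%), and 4 rose without Co 825 or without Co 828. Pla2g4e, a phospholipase, rose by 3.82, Ptges by 2.25 and Ptgs2, cyclooxygenase 2, by 1.99, while Hpgd, which inactivates prostaglandins, fell by 1.19.

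Glycolysis had the highest share of raised genes of the pathway lists examined. Of 33 tested genes of glucose uptake and glycolysis 23 rose (69.7% against 13.0% of all genes) and 1 fell, and between 19 and 23 rose when any 1 library was left out or another scaling was used. Slc16a3, a lactate exporter, was at 0.433, 0.494 and 0.414 FPKM in Co and 48.9, 41.1 and 35.2 FPKM in GFP and rose by 4.87 ± 0.48 on the log2 scale (SE, adjusted p = 1.59e-06). Slc16a1, the other main lactate carrier, was at 5.50, 6.54 and 5.03 FPKM in Co and 104, 77.9 and 78.4 FPKM in GFP and rose by 3.71. Slc2a1, the glucose transporter of keratinocytes, was at 43.6, 44.5 and 44.1 FPKM in Co and 199, 169 and 155 FPKM in GFP and rose by 1.95 ± 0.22 on the log2 scale (SE, adjusted p = 6.58e-06). Along the pathway Hk2, Pfkl, Gapdh, Pgk1, Eno1, Pkm and Ldha rose by 1.64, 1.47, 1.58, 2.14, 1.70, 1.34 and 2.09, and Tpi1 showed a log2 difference of 0.87 (adjusted p = 0.0304). Hif1a rose by 1.66 ± 0.24 on the log2 scale (SE, adjusted p = 7.05e-05), and its target Egln3, a prolyl hydroxylase of HIF, was at 2.92, 2.78 and 4.88 FPKM in Co and 94.7, 77.0 and 37.5 FPKM in GFP and rose by 3.90. Car12, an outward-facing carbonic anhydrase, rose by 3.02. The muscle form Pfkm fell by 0.75.

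Of 23 genes of sterol synthesis 15 rose (65.2%) and 0 fell, and 8 rose without GFP 814, GFP 815 or Co 828. Sqle, squalene epoxidase, was at 22.3, 28.7 and 14.8 FPKM in Co and 118, 120.1 and 72.6 FPKM in GFP and rose by 2.20 ± 0.33 on the log2 scale (SE, adjusted p = 1.03e-04). Msmo1 rose by 2.07, and Srebf2, the regulator of the pathway, showed a log2 difference of 0.33 (adjusted p = 0.244). Of 24 sebaceous lipid genes 2 rose, Fabp5 and Acsl1, which is 8.33% against 13.0% of all genes, and 9 rose without GFP 817. Fabp5, the epidermal fatty acid carrier, was at 36.3, 33.7 and 41.3 FPKM in Co and 2667, 1494 and 443 FPKM in GFP and rose by 4.99 ± 0.82 on the log2 scale (SE, adjusted p = 2.16e-04).

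Of 23 genes of arginine, polyamine and amino acid metabolism 13 rose (56.5%) and 0 fell. Slc7a11, the cystine importer, was at 0.0898, 0.0870 and 0.0889 FPKM in Co and 21.4, 29.0 and 25.0 FPKM in GFP and rose by 4.58 ± 0.39 on the log2 scale (SE, adjusted p = 4.03e-07). Slc6a14, a broad amino acid importer, rose by 4.39, Slc7a5 by 2.59 and Sat1, which degrades polyamines, by 2.03. Odc1 showed a log2 difference of 0.22 (adjusted p = 0.39). Of 38 NRF2 targets 13 rose (34.2%) and 3 fell. Gsta4 and Gpx2, which detoxify lipid aldehydes and peroxides, and Txnrd1 rose by 4.39, 2.72 and 2.46, while catalase (Cat) and Gstm1 fell by 1.23 and 1.10. Gclc and Gclm, the enzymes of glutathione synthesis, showed log2 differences of -0.12 and 0.29 (adjusted p = 0.505 and 0.246). Of 20 retinoid and vitamin D genes 7 rose and 2 fell (35% and 10% against 13.0% and 12.3% of all genes). Of these genes 3 or 4 rose when any 1 library but GFP 817 was left out. Rbp2 and Aldh1a3 rose by 3.94 and 2.97, and Crabp2 rose by 2.46 while Crabp1 fell by 1.52.

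MHC class II genes rose. Of 23 antigen presentation genes 6 rose (26.1% against 13.0% of all genes) and 0 fell. Cd74, the invariant chain, was at 2.75, 6.21 and 5.45 FPKM in Co and 109.8, 144 and 123 FPKM in GFP and rose by 4.49 ± 0.45 on the log2 scale (SE, adjusted p = 2.10e-06). H2-Ab1, H2-Aa and H2-Eb1 rose by 3.91, 3.89 and 3.41. The class I genes B2m and H2-K1 did not pass, with changes of 0.04 and 0.52 (adjusted p = 0.953 and 0.199), and the class II regulator Ciita had one of 0.66 (adjusted p = 0.0318). Of 10 macrophage and Langerhans cell markers, which hold Cd74 and H2-Aa, 5 were tested and only these 2 rose. The list summed to 85.4 to 89.2 FPKM in Co and 241 to 296 FPKM in GFP, with Cd68 and Lyz2 at changes of 0.48 and 0.54 (adjusted p = 0.0728 and 0.37), and its part in the class II rise was not tested. Of 27 interferon-stimulated genes 4 rose and 1 fell, which is near the background, and 1 rose without GFP 814 or Co 825. Isg15 rose by 1.50, while Irf7 showed a log2 difference of 0.46 (adjusted p = 0.0495).

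Many DNA replication genes rose. Of 38 replication and S-phase genes 21 rose (55.3%) and 0 fell. Tk1, thymidine kinase, was at 5.70, 3.46 and 4.83 FPKM in Co and 41.2, 28.0 and 22.5 FPKM in GFP and rose by 2.46 ± 0.24 on the log2 scale (SE, adjusted p = 1.24e-06). Rrm2, Uhrf1 and Mcm3 rose by 2.10, 1.88 and 1.74. Among 27 G1 regulators 7 rose and 4 fell (25.9% and 14.8%, the second near the 12.3% of all genes), and 2 fell without GFP 814 or any 1 Co library. Ccne1 rose by 2.05 ± 0.24 on the log2 scale (SE, adjusted p = 9.31e-06), E2f8 by 1.79 and E2f7 by 1.56, and the Cdk inhibitors Cdkn1b and Cdkn1c fell by 0.92 and 0.79. Ccnd1 and Myc showed log2 differences of -0.85 and -0.61 (adjusted p = 0.0934 and 0.151). Of 41 p53 target and cell death genes 11 rose and 2 fell (26.8% and 4.88% against 13.0% and 12.3% of all genes). The gasdermins Gsdmc and Gsdmc2 led the rises at 5.03 and 3.69, while Cdkn1a, the p53 target p21, rose by 0.89. Of 56 ribosomal protein genes 1 rose, and of 59 respiratory chain genes 9 rose (15.3%) and 0 fell, with 3 to 5 rising without GFP 814, GFP 815, Co 825 or Co 828.

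The GFP cells were then set beside the Tom bulge cells of the same 3 mice, in which Cre had not switched the reporter. In this comparison 12 genes were called higher in GFP (0.0941%) and 240 lower (1.88%). The number called higher was 57 without GFP 817, 6 without GFP 814, GFP 815 or Tom 815, and 5 in a fit of these 2 groups alone, in which 62 were called lower. Over the 310 genes called higher in GFP than in Co the median change from Co was 2.74 in GFP and 2.40 in Tom, and over the 81 called lower it was -2.33 and -1.97. Both changes use the same Co libraries, and the genes were chosen on the GFP change. With the mouse as a block in a fit of these 2 groups, 10 were called higher and 141 lower. Jun was at 308, 332 and 614 FPKM and Junb at 251, 278 and 402 FPKM in Tom, and GFP lay below Tom by 2.77 ± 0.40 on the log2 scale (SE, adjusted p = 1.74e-04) and by 2.33 ± 0.30 on the log2 scale (SE, adjusted p = 5.88e-05). Every Tom library also lay below every Co library for both genes. Il1a had the largest difference above Tom. It was at 6.12, 5.59 and 6.46 FPKM in Tom against 78.7, 89.8 and 38.8 FPKM in GFP, a difference of 3.23 ± 0.36 (SE), adjusted p = 1.50e-05. Tslp was at 27.8, 17.1 and 27.7 FPKM in Tom against 133, 131 and 109 FPKM in GFP, a difference of 2.34 ± 0.25 (SE), adjusted p = 8.12e-06. Plac8, Slpi, Cd177, Wfdc17, Krt77 and Stfa2l1 were higher in GFP by 3.09, 2.95, 2.89, 2.66, 2.51 and 2.43, and all of these but Stfa2l1 no longer passed when 1 library was left out or the mouse was a fixed block. S100a8 was at 22949, 8262 and 4063 FPKM in Tom and was not called (difference 1.06 ± 1.06 (SE), adjusted p = 0.645). Lcn2 was at 305, 187 and 92.8 FPKM in Tom (difference 1.44 ± 0.58 (SE), adjusted p = 0.167). Among the bulge genes, Krt24 was at 36.3, 31.5 and 87.3 FPKM in Tom and differed from GFP by -0.42 (adjusted p = 0.74). Grem1 was at 8.15, 9.61 and 10.6 FPKM in Tom, with a difference of -0.09 (adjusted p = 0.804), and Cd34 at 259.6, 319 and 279.6 FPKM, with a difference of -0.54 (adjusted p = 0.439). The 8 largest differences below Tom were Sele, Ackr1, Selp, Fabp4, Plvap, Aqp1, Emcn and Pecam1, all expressed by endothelium, at -6.60 to -5.46. In a fit of these 2 groups alone Fabp4, Plvap, Aqp1 and Emcn did not pass (limma, adjusted p = 0.0186, 0.0156, 0.0141 and 0.0208). The endothelial sum of 538 to 1718 FPKM in Tom moved with them, and its part in the count of genes below Tom was not tested.

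The change from Co to GFP was last compared between bulge stem cells and basal keratinocytes, whose Co and GFP libraries came from the same 6 mice. The difference of the changes was called above 0 for 77 genes (0.604%) and below 0 for 33 genes (0.259%), without HF-SC GFP 817 for 149 and 37, and without b-KC GFP 817 for 103 and 54. The 3 largest differences above 0 were matrix metalloproteinases. Mmp13 was at 0.182, 0.380 and 0.199 FPKM in Co and 79.0, 93.0 and 53.9 FPKM in GFP in the bulge, and at 4.82, 2.26 and 2.69 FPKM in Co and 6.07, 5.48 and 1.35 FPKM in GFP basal cells. Its basal values reached at most 6.07 FPKM, and the difference of changes was 5.69 ± 0.69 (SE), adjusted p = 1.69e-04. Mmp3 showed changes of 2.85 in the bulge and -2.92 in basal cells (difference 5.77 ± 0.90 (SE), adjusted p = 7.91e-04), and Mmp9 of 3.68 and -0.43 (difference 4.11 ± 0.83 (SE), adjusted p = 0.00465). The Mmp9 difference did not pass with no filter on low values (limma, adjusted p = 0.0106) or without any 1 of 8 libraries. Il33, an alarmin of the IL-1 family, showed changes of -0.06 in the bulge and -3.19 in basal cells (difference 3.13 ± 0.47 (SE), adjusted p = 5.78e-04). Below 0, Grem1 was at 0.578, 0.539 and 0.239 FPKM in Co and 0.0308, 0.0913 and 0 FPKM in GFP basal cells, and the difference of changes was -2.79 ± 0.23 (SE), adjusted p = 1.09e-05. Cck was at 0.125, 0.320 and 0.425 FPKM in Co and 0, 0.0722 and 0 FPKM in GFP basal cells (difference -2.90 ± 0.25 (SE), adjusted p = 1.28e-05). All of these basal values were under 1 FPKM, where a pseudocount of 1 shrinks a change. With a pseudocount of 0.1 the difference was -1.44 for Grem1 and -2.13 for Cck, and neither passed (limma, adjusted p = 0.048 and 0.022). Tslp rose by 5.48 in the bulge and 2.51 in basal cells, and Il1a by 5.18 and 2.85, and both differences were called, at 2.97 and 2.33 (adjusted p = 1.55e-04 and 0.00819). Neither difference was checked singly under other settings, and Il1a was under 1 FPKM in every bulge Co library.

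**Figure D5:**
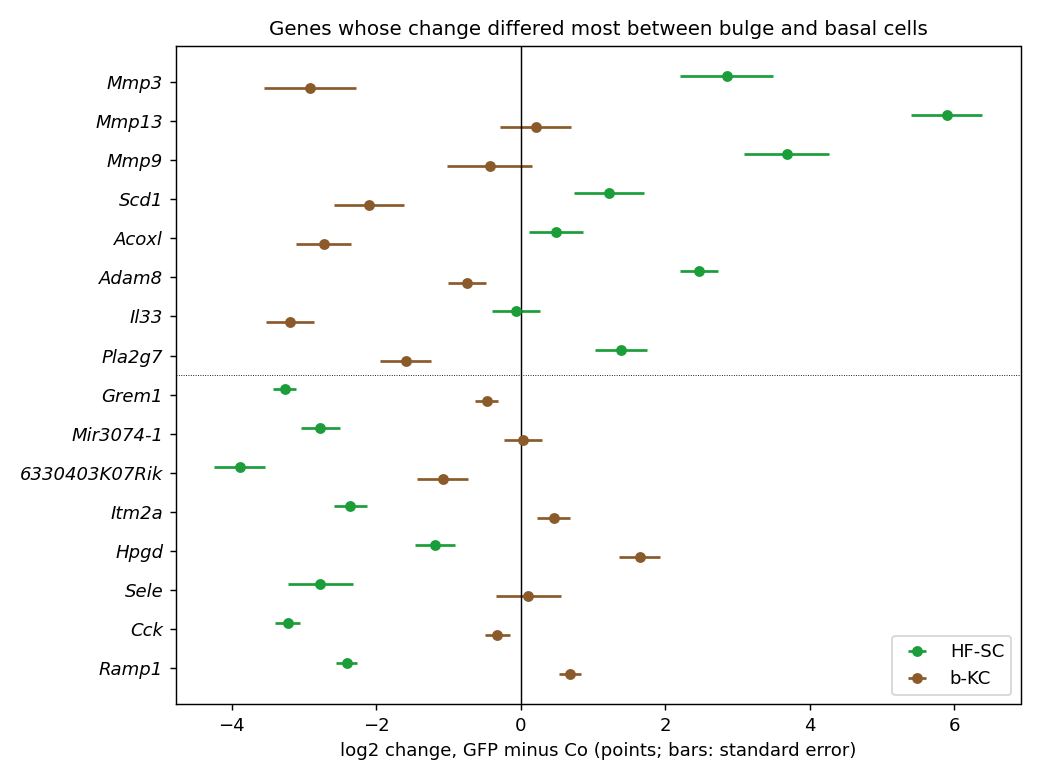
Change from Co to GFP (log2, point, with its standard error as bar) in bulge stem cells (HF-SC, green) and basal keratinocytes (b-KC, brown) for the 8 genes with the largest difference of changes above 0 (upper rows) and the 8 below 0 (lower rows). Mmp3 lies at 2.85 in HF-SC and -2.92 in b-KC, and Grem1 at -3.27 in HF-SC and -0.47 in b-KC.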

How the data were processed

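Bulge stem cells and basal keratinocytes were sorted from ear skin and 18 libraries were made from 6 mice. RNA was amplified with a low-input kit (SMART-Seq v4 and Nextera XT), which does not mark strand and carries no molecular identifiers, so depth floors cover counting error only and antisense genes cannot be separated. The authors aligned single-end reads to NCBI37/mm9 with TopHat2 2.0.10 and Bowtie 1.0.0 and deposited FPKM values per gene and library made with Cufflinks 2.2.1 (versions from the submitters' processing notes, which also list GRCm38 and mm10). Gene counts were not used here. FPKM plus a pseudocount of 1 was put on the log2 scale, genes that reached 1 FPKM in 3 or more libraries out of 18 were kept, and 1 mean for each of the 6 groups was fitted in limma 3.58.1 (R 4.3.3, empirical Bayes with a trend, two-sided moderated tests, Benjamini-Hochberg adjustment over all 12751 genes tested). The scripts were tested on simulated data. A called gene had an adjusted p under 0.01 and a change of at least 2 on the log2 scale. Each group held 3 mice, and the spread behind each p-value was pooled over the 18 libraries of 6 mice. Libraries of 1 mouse were treated as independent in this fit.

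The members and gene lists were chosen with earlier results of these data known. Named genes were Jun, Junb, Tslp and Il1a, the 12 largest rises and 12 largest falls among called genes without overlap of the groups, up to 4 members of each list with the largest changes at adjusted p under 0.01, members a reader would look for first, and the 8 largest differences in each direction in the other comparisons. Some further list members that passed, and genes shown for their promoter window, were named after their values were seen. Gene coordinates came from the NCBIM37 annotation and promoters from RefSeq (GRCm38.p6), matched by symbol.

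GFP and Tom cells came from the same mice by their labels. Deviations of GFP and Tom libraries of 1 mouse from their group means correlated at 0.591, 0.0838 and 0.435 for mice 814, 815 and 817, against -0.586 to 0.373 for libraries of different mice. GFP and Co shared no mouse. The alternatives were other pseudocounts, filters, thresholds, scalings and groups in the fit, no trend, the mouse as a replicate block, each library left out in turn and, added after seeing the data, a term for sex and the list counts without single libraries. The deposited table was used in full and no column was left unassigned. Some genes of the lists are counted but not reported by name here.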

Additional observations from a re-analysis of the deposited data

Results flagged for a closer look

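In 110 genes the bulge and the basal keratinocyte change, each GFP minus Co, were unequal by the test of the difference of changes (limma, adjusted p under 0.01 and a difference of at least 2 on the log2 scale). All values below are that difference, bulge minus basal, in log2 units.

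The difference was above 0 for Mmp3 (5.77), Mmp13 (5.69) and Mmp9 (4.11), which are described above. It was 3.32 for Scd1, a fatty acid desaturase, with changes of 1.23 in the bulge and -2.10 in basal cells. It was 3.22 for Acoxl, an acyl-CoA oxidase-like gene, and 3.21 for Adam8, a membrane metalloprotease, whose change was 2.47 in the bulge and -0.74 in basal cells. Il33 (3.13) and Pla2g7 (2.98), a secreted phospholipase that degrades platelet-activating factor, complete the upper end.

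The difference was below 0 for Ramp1 (-3.09), an accessory subunit of the receptor for the neuropeptide CGRP, with changes of -2.41 in the bulge and 0.68 in basal cells. Cck (-2.90), Sele (-2.88) and Hpgd (-2.83) followed, of which Sele is an endothelial gene whose level in the bulge libraries moved with the endothelial marker sum. Hpgd had changes of -1.19 in the bulge and 1.64 in basal cells. Itm2a (-2.82), 6330403K07Rik (-2.81), Mir3074-1 (-2.81) and Grem1 (-2.79) complete the lower end. Grem1 and Cck were below 1 FPKM in every basal library of Co and GFP. With a pseudocount of 0.1 the differences of Grem1 (-1.44), Cck (-2.13), 6330403K07Rik (-1.99), Sele (-4.24) and Acoxl (3.81) no longer passed (limma, adjusted p = 0.048, 0.022, 0.0495, 0.027 and 0.0117). With no filter on low values Mmp9, Scd1 and Sele did not pass either (adjusted p = 0.0106, 0.0115 and 0.0165), and these 3 genes also failed to pass without several single libraries, 8 of them for Mmp9 and 10 for Scd1.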

How the results depend on the processing

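The 391 genes called between GFP and Co became 781 with a pseudocount of 0.1, 1529 with a change of at least 1 and 758 from the ratio of group mean FPKM (36 genes at 0 in a whole group gave no ratio). They lay between 319 and 484 with each library left out, the last without GFP 817, which shared 377 genes with the 391. Rescaling to a common upper quartile gave 303 higher and 95 lower genes, with the median of all genes at -0.132. The 252 genes called between GFP and Tom became 489 with a change of at least 1, 67 in a fit of only these 2 groups and 151 with the mouse as a fixed replicate block, and lay between 199 and 341 with each library left out. The 110 genes whose change differed between bulge and basal cells became 232 with a pseudocount of 0.1 and 553 with a change of at least 1, and lay between 83 and 186 with each library left out, the last without HF-SC GFP 817. With the mouse as a random replicate block (consensus correlation 0.274) the counts were 401, 265 and 162, and with a term for sex, chosen after seeing the data, 406, 262 and 141. The cause of these shifts was not tested, apart from a smaller pseudocount or a lower threshold admitting more genes by construction.

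Of 2960 values of 185 named genes for GFP against Co under these alternatives, 2814 stayed on their side of the threshold, 146 of 29 genes no longer reached an adjusted p under 0.01 and 0 reversed. A change of at least 1 and the ratio of group mean FPKM kept the adjusted p of the main fit. Values under either could not cross this threshold, yet they are counted among the 2814. Of these 29 genes the text names Atf3, Klf6, Egr1, Rhob, Cyr61, F3, Id3, Cd34, Notch3 and S100a10. It also names Casp14, Krt80, Mmp3, Crabp2, Tsc22d3, Gjb6, Plvap, Vwf and Pecam1. Genes of the text outside the 185 were not checked singly, so their absence here does not show that they kept passing. The counts of Wnt and bulge surface genes that fell were lower without GFP 814, as given above. Some genes named from these lists but absent here therefore no longer passed without that library. Of 592 values of 32 genes named in the other comparisons 63 no longer reached an adjusted p under 0.01 and 0 reversed. The change of at least 1 kept the main adjusted p here too.

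Each group held 3 mice, and the GFP and Co cells came from different mice, so these groups could not be compared within a mouse. The GFP and Tom cells lay in the same skin. FPKM values carry no read counts, values of 0 in abundant genes such as Krt15 were listed while other libraries held high levels, and genes under 3 reads per kb were not measured reliably at this depth. Amplification from few cells adds error that the depth does not show. Sorting used CD34 itself, and the Co sort was not stated to select for the reporter.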
